A study of Mus musculus with 8 samples.

Results

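The most heavily used replication initiation sites (ISs) of CH12, a line of mouse B lymphoma cells, were the autosomal ISs chosen by a density of 6 or more in both WT and Rif1KO cells. Density is log2 RPM, the reads of an IS per 1000000 reads inside the ISs of the same table. Of 38954 autosomal ISs, 592 met this rule, or 1.52%. They carried 5.88% of the autosomal WT reads and 5.61% of the Rif1KO reads. ISs were mapped with SNS-seq, short nascent strand sequencing, in which short new strands that keep an RNA primer resist an exonuclease and are sequenced. There were 8 libraries, 2 in each of 4 groups: CH12 without a knockout (WT), CH12 lacking RIF1 (Rif1KO), and RIF1-deficient cells with a hairpin against the bacterial gene LacZ (Rif1KO_shLacZ) or against Mcm6 (Rif1KO_shMcm6). Both hairpin groups therefore lack RIF1, and the control hairpin accounts for infection. All cultures were of the same line and received IL4, CD40 and TGF beta stimulation per the labels. Which clone of the knockout was used for these libraries is not given in the sources used here.

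Mammalian replication starts at sites where the origin recognition complex has loaded the MCM helicase, a ring of the subunits MCM2 to MCM7. A loaded helicase licenses a site, and firing factors then activate a part of the licensed sites in S phase. RIF1 binds chromatin and brings a phosphatase that counteracts the kinases that activate MCM. ISs are known to be frequent at active promoters, at CpG islands and near runs of G, and no strict consensus sequence marks them in mammals.

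Each density is 1 pooled value per condition, so no value here has a replicate error, and no test across replicates could be made. Reads behind each density were recovered, and the errors given are counting errors of those reads. They are the smallest error possible, since copies made by PCR are not independent and culture spread is not covered. Inside ISs lay 3350255 WT, 3724571 Rif1KO, 21071351 Rif1KO_shLacZ and 23602750 Rif1KO_shMcm6 reads. The heavily used ISs held between 215 and 4819 WT reads, with a median of 279, against 73 over all ISs. No input DNA was used by the authors, so the number of copies of a sequence in these cells and its use as an IS cannot be told apart.

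The sequences that follow show the kinds of site among the densest. They are given on the plus strand of NCBIM37 (mm9) unless stated, in windows free of annotated exons. The densest autosomal site, chr17:39980014-39983717, had a window in which capitals mark a G-run motif read on the opposite strand, as runs of C. The motif searched was 4 runs of 3 or more G separated by 1 to 7 bases of any kind, on either strand.
Densest site, chr17:39981149-39981238: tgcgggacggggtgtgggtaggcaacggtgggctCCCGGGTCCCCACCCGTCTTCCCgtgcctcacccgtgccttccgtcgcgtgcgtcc
Windows from the densest repeat sites are shown because short units follow each other in them. Capitals mark 1 unit, of 17 bases in the intron of Unc45b and of 40 bases upstream of Rasgrf1. In the stretch searched for the repeat, 93.3% and 97% of bases equalled the base 1 unit further on.
Unc45b intron, chr11:82745000-82745089: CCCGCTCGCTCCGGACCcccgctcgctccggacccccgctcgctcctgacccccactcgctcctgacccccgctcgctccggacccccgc
Upstream of Rasgrf1, chr9:89775921-89776040: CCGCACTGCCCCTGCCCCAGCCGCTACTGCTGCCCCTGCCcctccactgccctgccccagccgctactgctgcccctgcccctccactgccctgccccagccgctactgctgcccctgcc
A group of GC-poor sites shared stretches between chromosomes. The capitals mark 57 bases, part of a slightly longer run, that were identical between the IS nearest Gm10801 at chr2:98503825-98504279 and the IS nearest Gm5614, the latter read on the minus strand. The first window begins just before its IS.
Nearest Gm10801, chr2:98503807-98503943: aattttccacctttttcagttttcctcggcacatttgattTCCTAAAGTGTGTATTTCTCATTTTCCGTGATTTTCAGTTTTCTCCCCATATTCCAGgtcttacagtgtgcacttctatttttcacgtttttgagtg
Nearest Gm5614, chr9:35113010-35113146, minus strand: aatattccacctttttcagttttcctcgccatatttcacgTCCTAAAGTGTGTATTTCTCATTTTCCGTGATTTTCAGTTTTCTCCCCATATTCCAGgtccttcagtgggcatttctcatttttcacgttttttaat
The densest site at the start of a gene of known function lay over Myc, and a window of it just upstream of an annotated transcript start, without capitals, was as follows.
Myc, chr15:61816826-61816945: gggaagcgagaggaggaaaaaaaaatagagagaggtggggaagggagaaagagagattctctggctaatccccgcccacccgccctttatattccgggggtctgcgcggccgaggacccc

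Both densest autosomal ISs lay side by side on chromosome 17, and the other, chr17:39984271-39985717, covered most of the pseudogene AY036118. In the RefSeq table for the later build GRCm38.p6, the neighbour of AY036118 is Rn18s-rs5, a pseudogene named for 18S ribosomal RNA. Mouse ribosomal RNA genes are present in many tandem copies, most of which a genome assembly leaves out. The first site had a density of 10.49 in WT, 10.22 in Rif1KO, 8.50 in Rif1KO_shLacZ and 8.35 in Rif1KO_shMcm6. The second had 9.12, 8.90, 8.08 and 7.92 in the same order. Both were in the highest percentile of the table of the hairpin groups, called the MCM6 table, and free of repeats within the site. Levels are comparable only within a table, since each table was scaled to its own ISs. The part of uncounted copies in these densities was not tested.

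Next in density was an IS over an exon of Sp110, which encodes a nuclear body protein, at chr1:87487440-87489978. It had 8.73 in WT, 8.57 in Rif1KO, 5.81 in Rif1KO_shLacZ and 5.45 in Rif1KO_shMcm6. Of its 32-base words, 83.4% occurred more than 1 time in the genome. The intron IS of Unc45b, a myosin chaperone gene, had 8.40, 8.33, 6.87 and 6.65 in the same order of groups. The IS 28021 bases upstream of Rasgrf1, an imprinted gene for a RAS exchange factor, had 8.35, 8.21, 6.58 and 6.28. Words repeated within the site made up 37.5% and 40.5% of the 32-base words of these sites. Both stayed at the top of the hairpin libraries, at the 100th percentile of Rif1KO_shLacZ density after rounding.

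The IS at the start of Myc, the transcription factor gene of B cell lymphoma translocations, spanned chr15:61816040-61817936. It held 853 WT and 861 Rif1KO reads, a density of 7.99 and 7.85. In the MCM6 table it held 625 Rif1KO_shLacZ and 555 Rif1KO_shMcm6 reads, a density of 4.89 and 4.56. None of its 32-base words recurred in the genome. It ranked among the 10 densest autosomal ISs of the first table, and at the 99.7th percentile of Rif1KO_shLacZ density.

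**Figure D1:**
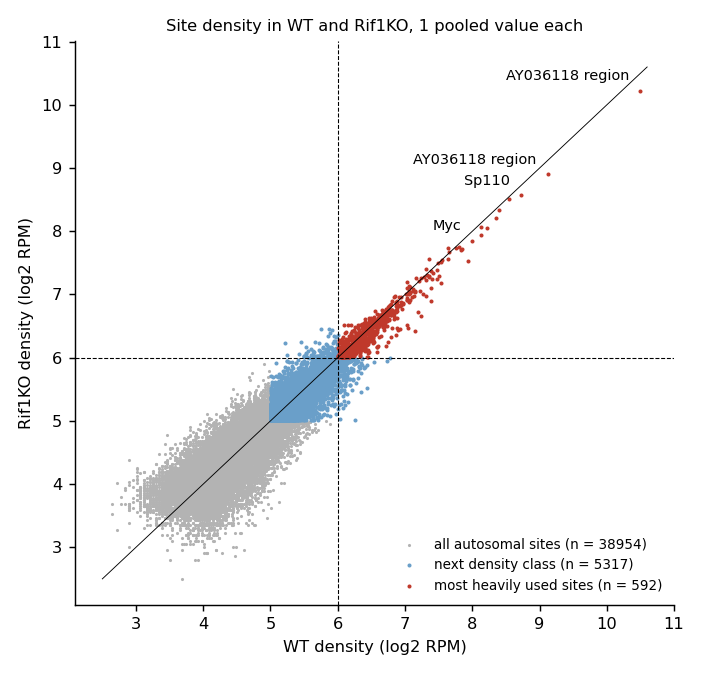
WT density (horizontal, log2 RPM) against Rif1KO density (vertical, log2 RPM) for 38954 autosomal ISs, each point 1 IS with 1 pooled value per condition; dashed lines mark the threshold of 6 and the diagonal marks equal density. The 592 heavily used ISs (red) reach 10.49 in WT, and the 5317 ISs of the next class (blue) have 5 or more in both conditions.

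The remaining named sites among the 10 densest were at or nearest Sfi1, Gm10800 and Ly6c2. An intergenic IS at chr11:3001042-3002547, nearest Sfi1, had a WT density of 8.55 and a Rif1KO density of 8.51. An intron IS of Sfi1, chr11:3055527-3056669, had 8.12 and 8.07. SFI1 is a centrosome protein. These belonged to the largest group of neighbours, 12 heavily used ISs within 96.5 kb at the proximal end of chromosome 11, where all 12 autosomal ISs of the table passed the rule. Their WT densities lay between 6.47 and 8.55, and 10 of them were found again in the MCM6 table. Of the 12, 8 had under 10% of their words repeated in the genome, copies within the IS included, and the highest share was 53.6%. The intergenic IS nearest Ly6c2, chr15:74915825-74917623, which lay 24491 bases from the start of that gene, had 8.14 and 7.95 but met no IS of the MCM6 table.

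Low GC content set another small group apart. Of the 592 ISs, 16 had a GC content under 40%, and 8 shared at least 10% of their 16-base words with the IS over Gm10800 (chr2:98506344-98507527; 8.22 in WT, 8.05 in Rif1KO). Of these 8, itself included, 3 lay on chromosome 2 and 5 on chromosome 9, with GC contents of 34% to 37.5%. Mouse pericentromeres consist of a long array of AT-rich satellite repeats, and copies of such repeats occur elsewhere. WT densities of the 8 ranged from 6.31 to 8.22. Of the 8, 5 were found in the MCM6 table, at Rif1KO_shLacZ densities from 2.17 to 6.20. The lowest, at Gm10715, was at only the 19.7th percentile of Rif1KO_shLacZ density. Ranks in the hairpin libraries were thus spread widely within this group.

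The heavily used ISs lay close to gene starts more often than all ISs did. Of the 592, 163 lay within 1 kb of a TSS, the transcription start site of any protein-coding transcript, or 27.5% (95% Wilson interval 24.1% to 31.3%). The share was 11.3% (10.5% to 12.2%) in the next density class, the 5317 ISs with at least 5 in both conditions, and 6.34% (6.1% to 6.59%) over all autosomal ISs. For 103 ISs the TSS lay inside the IS, 17.4% against 2.44% over all. Heavily used ISs were also wider, at a median of 898 bp against 447, and a wider IS meets a TSS more readily. These shares were not corrected for width. Exons beyond 1 kb of a TSS held 77 ISs (13%), of which 70 overlapped coding sequence. Introns held 139 (23.5%) and intergenic sequence 213 (36%), against 30.9% and 58.2% over all ISs. Intervals of all these shares were apart between heavily used ISs and all ISs.

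Chromosomes differed in how many of their ISs were heavily used. The share was highest on chromosome 11, at 2.68% of 2462 ISs, and lowest on chromosome 16, at 0.598% of 2174. Of the 592, 158 had another heavily used IS within 100 kb. Beside the group at Sfi1, 5 lay within 188 kb at Lsp1, Mrpl23 and the imprinted growth factor gene Igf2 on chromosome 7. Another 5 lay within 108 kb at Eif5a, Ybx2, Phf23 and Dlg4 on chromosome 11.

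**Figure D2:**
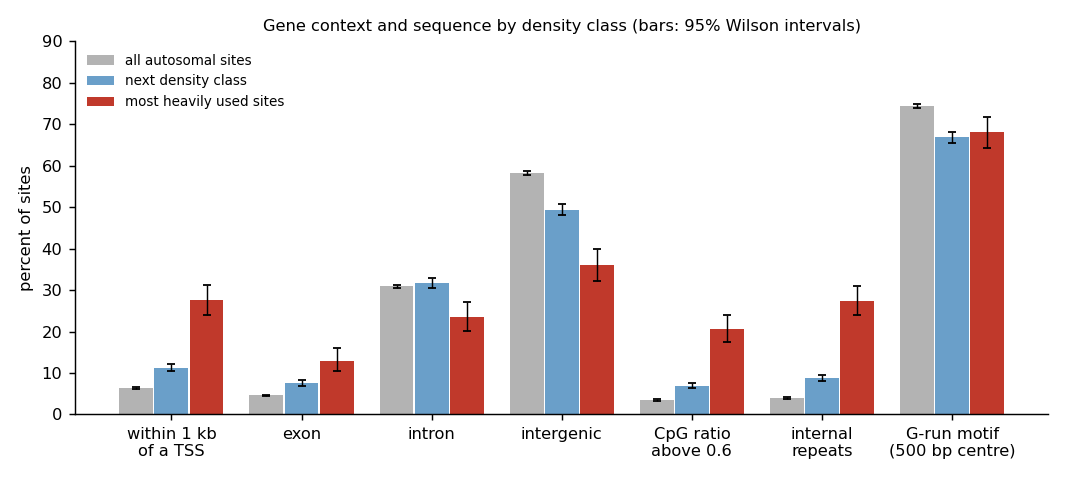
Percent of ISs (vertical) in each gene context or with each sequence feature (horizontal) for all autosomal ISs (grey), the next density class (blue) and the heavily used ISs (red), with 95% Wilson intervals. Promoter ISs make up 27.5% of the heavily used ISs and 6.34% of all, and ISs with internal repeats 27.4% and 3.92%.

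Heavily used ISs were wide, rich in GC and of mixed sequence. Their median width was 898 bp (quartiles 761 and 1082), against 674 in the next class and 447 over all ISs. Density is not divided by width, and per kb of width their median WT value was 98.5 RPM against 49.5 over all. This value uses the WT densities that chose the ISs, so a higher median is in part built in. Median GC content was 58.2% (52.7% to 62.6%), against 50.2% and 46.9%. The observed over expected number of CpG exceeded 0.6, the range of CpG islands, in 122 ISs (20.6%), against 3.5% over all. Promoter ISs among the heavily used had a median CpG ratio of 0.67, above the 0.22 of all 592. Over all autosomal promoter ISs the median was 0.51.

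The densest promoter ISs with a CpG ratio above 0.6 were those of Gm10800, Myc and Gm10801. They were followed by Dcun1d4, which encodes a cofactor of cullin neddylation, at 7.47 in WT and 7.38 in Rif1KO. Ccdc9 had 7.51 and 7.30, Phf23 7.48 and 7.25, and Sfi1 7.36 and 7.28. Lrrc3 had 7.31 and 6.97, Camk2g, a calcium-dependent kinase gene, 7.27 and 7.01, and Cys1, a cilium gene, 7.04 and 7.20. The centre of promoter ISs lay at a median of 160 bases downstream of the TSS.

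The promoter share was higher still among ISs with under 10% of their words repeated in the genome. Of the 592, 224 (37.8%) had at least 10% of their 32-base words repeated in the genome, against 36.2% of all autosomal ISs. Copies within the same IS count as repeats here, so ISs with only internal repeats are included. Leaving out these ISs therefore also removes ISs with internal repeats. Words repeated to 50% or more were in 42 (7.09%), against 2.18%. Among the 368 without such repeats the promoter share was 42.9%, where 14.6% of the next class and 8.97% of all ISs without them were promoter ISs. Median GC content there was 58.7%, 50.9% and 48.6% in the same order.

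**Figure D3:**
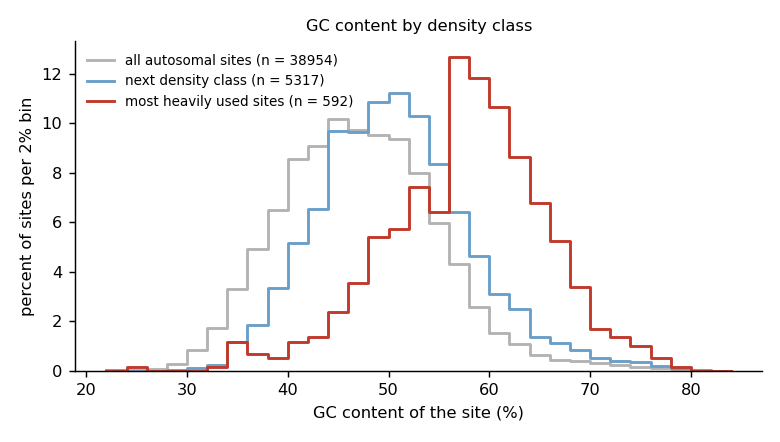
Share of ISs (vertical, percent per bin of 2% GC) by GC content of the IS (horizontal, percent) for all autosomal ISs (grey), the next density class (blue) and the heavily used ISs (red). The medians are 46.9%, 50.2% and 58.2%, and 16 heavily used ISs lie under 40%.

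Repeats within the site were the other common feature. In 162 heavily used ISs (27.4%, interval 23.9% to 31.1%) at least 10% of 32-base words occurred more than 1 time within the site. The share was 8.69% in the next class and 3.92% (3.73% to 4.12%) over all ISs. Of the 162 repeat ISs, 158 had no TSS within 1 kb, as had 1486 of the 1528 repeat ISs among all autosomal ISs. The G-run motif was found in 77.9% of heavily used ISs (74.4% to 81%), 84.3% of the next class and 77.5% of all ISs, although the heavily used were the widest. In windows of 500 bp at the centre, the same length for all, it was in 68.1% (64.2% to 71.7%) against 66.9% in the next class and 74.3% over all ISs. Without the repeat ISs the share in these windows was 74.4% (70.1% to 78.3%), against 69% for the next class and 75.3% for all ISs without such repeats. In repeat ISs it was 51.2% (43.6% to 58.8%) among the heavily used and 50.3% over all.

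Of the gene lists examined, each gave too few genes with an IS for its count of heavily used ISs to be set apart from that of all genes. Over all autosomal protein-coding genes, 171 of the 2395 with an IS within 1 kb of a TSS had a heavily used one, or 7.14%. Those 2395 were among 21275 genes in all. Of 34 genes of licensing and firing in the annotation, 2 had any IS there and none had a heavily used one. Orc4, a subunit of the origin recognition complex, had an IS of 5.15 in WT, and Gins2, a subunit of the replicative helicase, one of 4.56. Of 26 B cell genes 5 had an IS, and Myc alone had a heavily used one. The next in density among them was Pim1, a kinase gene, at 5.92 in WT. Ribosomal protein genes had an IS in 11 of 138 cases and Hox genes in 15 of 39, with none heavily used, and no histone gene of 67 had an IS. Of 11 genes with classically mapped mammalian origins 3 had an IS, among them Myc, at 7.99 in WT, and Lmnb2, a nuclear lamina gene, at 5.80.

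The rule used the densities of WT and Rif1KO, so their difference is given as a description. An IS that fell under 6 in either condition was left out, which removes large differences near the threshold. The median counting error was 0.12, against 0.23 over all autosomal ISs. Fewer calls at 1.5-fold than over all ISs are thus in part built in. The median log2 difference of Rif1KO minus WT was -0.05 over the 592, with quartiles of -0.12 and 0.03. At 1.5-fold, 0 were higher and 1 was lower in Rif1KO, where 2.27% and 2.69% of all autosomal ISs were. That 1 was the promoter IS of Sgpl1, the gene of sphingosine phosphate lyase, at chr10:60609278-60610389. It had 7.15 in WT and 6.42 in Rif1KO, from 476 and 318 reads. The next lowest were the promoter IS of the ubiquitin ligase gene March9 (7.04 and 6.46), an exon IS of Fstl3, which encodes a follistatin-like inhibitor of activins (7.24 and 6.66), and an IS upstream of the transcription factor gene Onecut3 (6.71 and 6.18). All 4 lay on chromosome 10, where the median difference was -0.43 over 28 heavily used ISs and -0.36 over all 2699 ISs. On chromosome 16 these medians were 0.17 over 13 and 0.33 over 2174. Without chromosomes 10, 15 and 16 the medians were -0.05 and 0.01. The part of whole-chromosome differences between the cultures was not tested.

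The highest differences were small. The intron IS of Mettl7a2 had 6.09 in WT and 6.51 in Rif1KO, from 229 and 340 reads. The intron IS of Pkhd1l1 had 6.15 and 6.52, and the IS nearest Fam84b had 6.20 and 6.52, all on chromosome 15. The median difference there was 0.05 over 51 heavily used ISs and 0.16 over all 2667. The intron IS of Gmpr, the gene of GMP reductase, had 6.12 and 6.41 and lay on chromosome 13. At the threshold, ISs just inside and just outside differed by 1 Rif1KO read. The ISs nearest Rbfox3 and Slc45a1 held 239 Rif1KO reads, as did the promoter IS of Ssbp2, and those just outside, nearest Vmn1r238, Zfr2 and Prkce, held 238.

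Following the ISs into the MCM6 table asked whether heavy use recurred in libraries that did not choose them. An IS of that table overlapped 511 of the 592 by 1 bp or more, or 86.3% (83.3% to 88.9%). The next class had 85.5% and all autosomal ISs 83.6%. Of the 511, 502 met exactly 1 IS, 8 met 2 and 1 met 3, and 18 shared their IS with another IS of the first table. Their median density was at the 99.6th percentile of the 127312 autosomal ISs in Rif1KO_shLacZ and the 99.3rd in Rif1KO_shMcm6. Over all ISs followed these medians were 80.7 and 78.8. In Rif1KO_shLacZ 479 of 511 (93.7%) exceeded the 95th percentile, against 16.8% of all followed, and 3 were at or below the median. In the 4 lists of ISs called per condition, 407 of the 592 (68.8%, interval 64.9% to 72.4%) were in every list, against 39.1% of all autosomal ISs. The WT and Rif1KO lists come from the libraries whose densities chose the ISs, and 87.2% against 51.7% were in both of these. In the list of Rif1KO_shLacZ were 81.8% against 77.9%, and in that of Rif1KO_shMcm6 80.7% against 76.9%. Both Rif1KO and Rif1KO_shLacZ lack RIF1, and all groups are the same cell line.

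**Figure D4:**
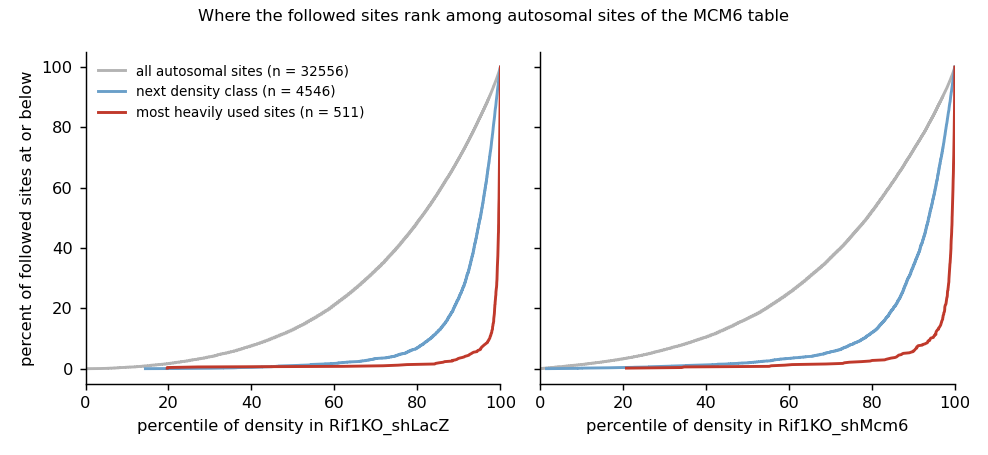
Cumulative percent of followed ISs (vertical) by the percentile of their density (horizontal) among autosomal ISs of the MCM6 table, in Rif1KO_shLacZ (left) and Rif1KO_shMcm6 (right), for all autosomal ISs (grey), the next density class (blue) and the heavily used ISs (red). The red curves stay near 0 until the highest percentiles, with medians of 99.6 and 99.3.

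Seen from the other table, the overlap was looser. When the 592 densest autosomal ISs of the MCM6 table were taken by the same measure, 232 of them (39.2%) met a heavily used IS and 233 heavily used ISs (39.4%) met one of them. Of these 592, 531 met some autosomal IS of the first table. Across the 511 followed, Spearman's rho was 0.50 between WT and Rif1KO_shLacZ density and 0.91 between Rif1KO_shLacZ and Rif1KO_shMcm6 density. These are descriptions across ISs, which share their libraries, width and base composition.

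In all, 81 heavily used ISs met no IS of the MCM6 table. Their median WT density was 6.47, close to the 6.38 of all 592, and 26 of them were promoter ISs. The densest, after the IS nearest Ly6c2, were an intergenic IS nearest Rybp (chr6:100417034-100418706; 7.42 in WT, 7.34 in Rif1KO), made of repeats for 80.1% of its words, an intergenic IS nearest Trub1 (7.39 and 7.37), and the promoter IS of Phf23, a PHD finger gene (7.48 and 7.25). Their median distance to the next IS of the first table was 19111 bp, against 9336 over all 592. The authors kept only peaks lying in a cluster with others, separately in each condition, and the part of this filter was not tested.

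Depletion of MCM6 was compared within RIF1-deficient cells, in libraries the rule did not use. The median log2 difference, Rif1KO_shMcm6 minus Rif1KO_shLacZ, was -0.20 over the 511 (quartiles -0.31 and -0.04), and 409 of them were below 0. It was -0.14 in the next class, -0.09 over all 32556 autosomal ISs followed in the same way and -0.01 over the whole autosomal table. Values are relative to the reads inside ISs, so a fall everywhere would not be seen. At 1.5-fold, 3 of the 511 (0.587%) were higher and 19 (3.72%, interval 2.39% to 5.73%) were lower. Among all ISs followed 0.903% were higher and 1.47% lower, while 4.82% and 1.49% were over all autosomal ISs of the hairpin libraries. The share lower was thus above the background and its interval did not reach it, while the share higher was near that of ISs followed. That interval spans ISs of 1 pooled pair of values, which are not replicates.

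The ISs that were lower by 1.5-fold after MCM6 depletion were mostly promoter ISs, while the median was below 0 in every context. Of the 19 lower ISs, 15 were promoter ISs, 10.9% (6.75% to 17.3%) of the 137 promoter ISs followed. Over all promoter ISs followed the share was 6.34% (5.35% to 7.51%), and in the next class 8.07%, so these intervals overlapped. In exons, introns and intergenic sequence 1.47%, 0% and 1.6% of heavily used ISs were lower, against 2.56%, 1.23% and 1.02% over all followed. The median difference was -0.26 at heavily used promoter ISs, -0.23 in exons, -0.17 in introns and -0.16 in intergenic sequence. Over all ISs followed these were -0.16, -0.16, -0.10 and -0.07. Among promoter ISs with a CpG ratio above 0.6, 14 of 82 heavily used were lower (17.1%, 10.5% to 26.6%), and 1 of 55 with a lower ratio was (1.82%, 0.322% to 9.61%). In the next class these shares were 14.1% (10.4% to 18.9%) and 1.98%, and over all promoter ISs followed 12.5% (10.3% to 15.1%) and 2.63%, so the intervals above 0.6 overlapped between the density classes. In the 49 ISs with a density of 7 or more in both WT and Rif1KO, none passed 1.5-fold in either direction and the median was -0.15. Among promoter ISs with under 10% of words repeated in the genome, 15 of 132 heavily used were lower (11.4%), against 8.67% in the next class and 6.98% over all. Spearman's rho of GC content with the log2 difference was -0.25 over the 511 and -0.22 over all 32556, again a description across ISs.

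**Figure D5:**
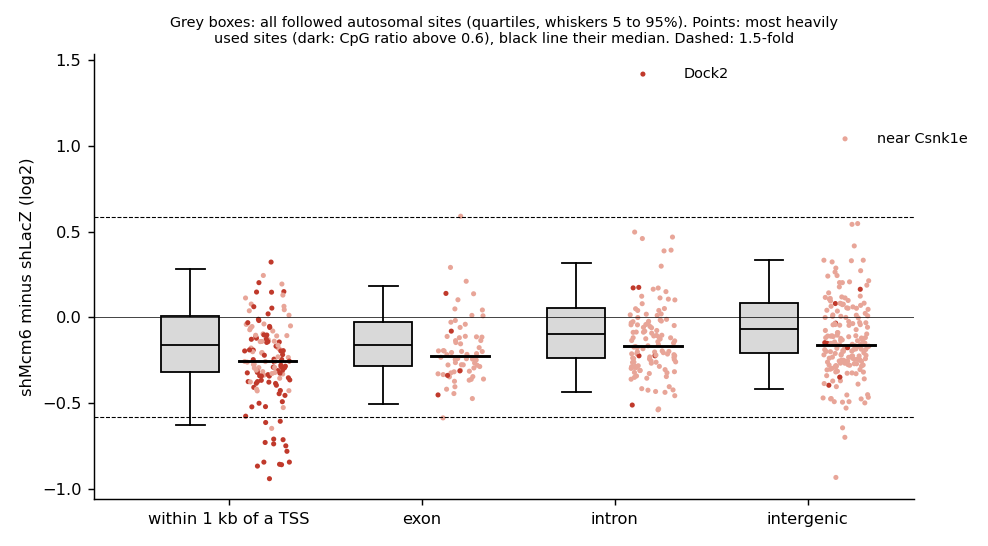
Log2 difference of Rif1KO_shMcm6 minus Rif1KO_shLacZ density (vertical) by gene context (horizontal). Grey boxes give quartiles and 5% to 95% whiskers of all autosomal ISs followed, points are the 511 heavily used ISs (dark where the CpG ratio exceeds 0.6), black lines are their medians and dashed lines mark 1.5-fold; of the 19 points under the lower line 15 are promoter ISs.

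The sequences of 3 of the 4 lowest promoter ISs are shown with a G-run motif in capitals, read on the opposite strand at Ctdspl. They lie just beside annotated exons.
Ssbp2, chr13:91600483-91600572: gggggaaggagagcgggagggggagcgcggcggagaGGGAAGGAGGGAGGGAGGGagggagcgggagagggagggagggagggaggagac
Dazap2, chr15:100445554-100445643: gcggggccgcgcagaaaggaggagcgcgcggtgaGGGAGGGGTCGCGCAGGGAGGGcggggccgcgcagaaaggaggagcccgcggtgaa
Ctdspl, chr9:118835127-118835216: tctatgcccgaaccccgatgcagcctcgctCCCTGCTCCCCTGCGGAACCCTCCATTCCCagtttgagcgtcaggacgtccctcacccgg
At Ssbp2, which encodes a single-stranded DNA-binding protein, density was 3.81 in Rif1KO_shLacZ and 2.87 in Rif1KO_shMcm6, from 295 and 172 reads. Its log2 difference was -0.94 with a counting error of 0.14. At Dazap2, the gene of a small proline-rich protein, density was 4.81 and 3.95, from 590 and 364 reads. At Ctdspl, a phosphatase gene, it was 4.29 and 3.43, from 411 and 254 reads. All 3 exceeded 6 in WT and Rif1KO and differed there by -0.13, 0.21 and -0.02.

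Others in this group were Zfp516, a zinc finger gene (3.74 and 2.87), Maz, which encodes a zinc finger factor that binds GC-rich DNA (4.50 and 3.66), and Ddx6, an RNA helicase gene (4.53 and 3.68). Pias3, a SUMO ligase gene, had 4.13 and 3.35, and Ncoa6, a nuclear receptor coactivator gene, 4.26 and 3.51. The remaining promoter ISs were at Rassf8, Nacc1, Impa2, Abtb1, Slc12a5, Zfp395 and Plekho2, with log2 differences between -0.74 and -0.61. The 4 lower ISs away from promoters were an intergenic repeat IS nearest Fam43a (3.90 and 2.96), intergenic ISs nearest Dll4 (4.49 and 3.79) and Map3k6 (4.42 and 3.77), and an exon IS of Ror2 (4.40 and 3.81).

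None of the 3 higher ISs was a promoter IS. The intron IS of Dock2, a gene for an exchange factor of lymphocyte migration, had a density of 2.99 in Rif1KO_shLacZ and 4.40 in Rif1KO_shMcm6, from 167 and 500 reads. Its log2 difference was 1.42 with a counting error of 0.13, the highest of the 511, and its GC content was 34.8%. It stood at the 62nd percentile of Rif1KO_shLacZ density, among the 4 lowest ranks of the ISs followed, and at 6.16 in WT and 6.30 in Rif1KO. Its centre is shown because a unit recurs loosely in it, with 81.9% of bases equal at a distance of 48.
Dock2 intron, chr11:34495444-34495563: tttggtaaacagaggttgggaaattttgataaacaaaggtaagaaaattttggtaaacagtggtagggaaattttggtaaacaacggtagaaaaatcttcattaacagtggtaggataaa
The intergenic IS nearest Csnk1e, the gene of a casein kinase, had 4.81 and 5.85, from 591 and 1362 reads. The exon IS of Kif5a, a kinesin gene, whose nearest TSS is that of Pip4k2c, had 4.73 and 5.32, from 559 and 942 reads. Words repeated within the site made up 58.8% and 40.5% of these. The fourth highest, an intergenic IS at chr8:99190392-99191687, had 3.79 and 4.33, short of 1.5-fold. Among repeat ISs 2 of 141 followed were higher and 2 lower, with a median of -0.15, and among the others 1 of 370 was higher and 17 lower, with a median of -0.20. Over all autosomal repeat ISs followed, 4.48% were higher and 3.44% lower, and over the others 0.76% and 1.4%.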

How the data were processed

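SNS-seq reads were trimmed with Trim Galore 0.6.4 and cutadapt 2.6 and aligned to mm9 with Bowtie 1.2.3 by the authors, per the submitters' processing notes and the methods. Only uniquely aligned reads were kept, peaks were called with MACS per replicate without input, and consensus peaks lying in clusters were merged per contrast. The deposited values are log2 RPM, 1 pooled value per condition, how replicates were pooled is not given in the sources used here, and a column of the authors' fold-change classes was not used. Other deposited columns, neither densities nor counts, give merged peaks per IS. The linear values were whole multiples of 1 read for 100% of ISs (tolerance 0.01). Python 3.11.15, numpy 2.4.6, pandas 2.3.3 and samtools 1.23.1 were used, and overlap, read recovery and fold calls were tested on simulated data. An IS meeting several ISs took their summed RPM. Promoter, exon, intron and intergenic context came from protein-coding GENCODE genes of NCBIM37, and 0 ISs lay past a chromosome end. An IS called intergenic can thus lie in a noncoding gene or a pseudogene. Counting errors are of log2 ratios of reads. Shares carry 95% Wilson intervals. A word is 32 bases unless stated, counted on either strand in the genome and on the plus strand within an IS. Members, gene lists and comparisons were chosen with earlier results of these data known. Named ISs were the 10 densest, the 4 highest and 4 lowest in each contrast, 3 on each side of the threshold and those at listed genes. Names added beyond this rule were chosen after their values were seen. Some genes of the lists are not reported here by name.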

Additional observations from a re-analysis of the deposited data

Results flagged for a closer look

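Outside the autosomes, 16 ISs on chromosome X and 3 on mitochondrial DNA had a density of 6 or more in both WT and Rif1KO, in sequence that the comparisons above do not use. On chromosome X the WT densities ranged from 6.12 to 7.56, and 15 of the 16 were found in the MCM6 table, with a median log2 difference of 0.02. On mitochondrial DNA the WT densities were between 7.76 and 11.21 and the Rif1KO densities between 7.61 and 11.05, and all 3 were found in the MCM6 table, with a median of -0.10.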

How the results depend on the processing

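No paired analysis was possible because libraries of a group share 1 deposited density per IS, and so no replicate could be left out. Of 85 alternatives, 0 reversed, and 35 moved past the interval or spread of the result or, for shares past a fold, by over 1.5 times. The other 50 did not. Alternatives without repeated sequence were chosen after seeing the data. Thresholds and overlap rules act by construction, and the cause of other moves was not tested. The share past 1.5-fold after MCM6 depletion, 4.31%, was 0.391% at 2-fold, 25% at a log2 threshold of 0.32 and 0% at a density threshold of 7. The median log2 difference, -0.20, was -0.22 for as many ISs ranked per kb, -0.17 at a density of 5.5 and -0.15 at 7. After RIF1 loss the share, 0.169%, was 0% at 2-fold, at densities of 6.5 and 7 and without chromosomes 10, 15 and 16, 0.507% when centred, 0.621% at 5.5, 4.9% at the log2 threshold of 0.32 and 0.272% without genome repeats. The promoter share, 27.5%, was 23.3% ranked per kb, 20.3% at 5.5, 42.9% without genome repeats and 37% without repeats within the site. Median GC content, 58.2%, was 59.8% over 500 bp, 54.3% at 5.5, 60.8% at 6.5 and 62.3% at 7. The G-run share, 77.9%, was 74.3% at 6.5, 71.4% at 7, 89.4% with loops of 1 to 12 bases, 68.1% over 500 bp, 88.3% without genome repeats and 85.8% without repeats within the site. The share found in the MCM6 table, 86.3%, was 83.2% at 6.5, 82.1% for one-to-one overlaps and 79.7% at 50% overlap of both ISs. Median width, 898 bp, was 698 ranked per kb, 794 at 5.5, 1032 at 6.5 and 1194 at 7. At a median counting error of 0.09 (log2), differences of single ISs near 0 cannot be told from counting noise.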
